A study of Mus musculus with 16 samples.

Results

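Interferon response genes are the genes that cells switch on when an interferon reaches its receptor, and 45 mouse genes of this kind were followed across 16 libraries of mouse left ventricle. They were chosen by symbol: 32 antiviral genes known mainly as targets of type I interferon, 9 genes known mainly as targets of interferon gamma, and 4 genes of antigen presentation on major histocompatibility complex (MHC) class I. The choice was made with earlier results of these data known. All 45 were found among the 57186 gene IDs of the count table, and all 45 were among the 15206 genes tested. The study asked how TFEB, a transcription factor best known for driving lysosomal and autophagy genes, bears on hypertrophy and failure of the heart. There were 4 cKO TAC, 4 cKO sham, 4 WT TAC and 4 WT sham libraries. Here cKO is a knockout of Tfeb in cardiomyocytes, WT is its control, and TAC is transverse aortic constriction, a surgical narrowing of the aorta that makes the heart pump against raised pressure, and sham is surgery without it. All mice were C57/BL6N, and the series gives the 4 of each group as biological replicates. Age, sex, time after surgery, the Cre line and what the WT mice carried are not given in the labels, and each library is whole left ventricle, so cells other than cardiomyocytes keep Tfeb.

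Type I interferons signal through a receptor whose kinases activate a transcription factor complex that holds STAT2 and IRF9. It binds the interferon-stimulated response element (ISRE), and some products of the genes so induced bind, cut or trap viral RNA and proteins. Interferon gamma signals through another receptor and leads to binding at gamma-activated sites (GAS), and its best known targets in mice are the guanylate-binding proteins, the immunity-related GTPases and the class I pathway. The targets overlap widely, so a gene placed in one class can respond to both. In heart muscle, interferon response genes are read out both in immune cells and in resident cells. In bulk tissue, fewer cells of a type and less RNA per cell cannot be told apart.

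Tfeb (ENSMUSG00000023990) was checked first. It stood at 14.7, 13.8, 13.0 and 9.36 CPM (read counts scaled to a common library size) in cKO TAC hearts, against 39.9, 34.6, 20.6 and 21.0 CPM in WT TAC hearts. In cKO sham hearts it stood at 10.0, 9.11, 9.67 and 13.0 CPM, against 30.9, 37.4, 40.1 and 37.5 CPM in WT sham hearts. Every cKO library was below every WT library after both operations, with log2 changes of -1.19 ± 0.20 (SE, adjusted p = 0.0138) after TAC and -1.80 ± 0.20 (adjusted p = 0.000604) after sham. The TAC call was lost in a fit of the 2 groups alone (adjusted p = 0.0543) and without WT TAC replicate 2 (adjusted p = 0.0645). TAC did not pass against sham for Tfeb in cKO hearts (0.28 ± 0.21, adjusted p = 0.341) or in WT hearts (-0.33 ± 0.19, adjusted p = 0.256). These and all adjusted p-values below come from edgeR's quasi-likelihood test with Benjamini-Hochberg adjustment over all 15206 tested genes, and a value under 0.05 passed. Library totals ranged from 12946878 to 16347388 counts.

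Printed below are the promoters of the members with the smallest adjusted p between TAC and sham in WT hearts. They are 3 of the type I class, 2 of the gamma class and 1 of the class I class. The letters of the response elements named above were searched in them. Iigp1, second in the gamma class by that p, is left out, and the next member, Gbp3, is shown. Each is 1 window of 300 bases, from 250 bases before to 50 bases after the annotated start, read 5′ to 3′ on the gene's own strand, from RefSeq on GRCm38.p6. Capitals mark matches on either strand to the ISRE letters GAAANNGAAA, where N is any base. No GAS letters (TTCNNNGAA) and no CACGTG, the core of the element that TFEB is known to bind, were found in any of these windows.
Ifit1 (chr19:34640639-34640938, plus strand): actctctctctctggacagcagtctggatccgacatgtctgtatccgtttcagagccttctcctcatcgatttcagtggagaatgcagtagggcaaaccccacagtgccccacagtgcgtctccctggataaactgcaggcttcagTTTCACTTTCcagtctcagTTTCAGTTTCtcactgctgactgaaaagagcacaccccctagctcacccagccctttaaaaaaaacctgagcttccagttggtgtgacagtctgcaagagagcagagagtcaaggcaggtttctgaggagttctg
Ifit3 (chr19:34583279-34583578, plus strand): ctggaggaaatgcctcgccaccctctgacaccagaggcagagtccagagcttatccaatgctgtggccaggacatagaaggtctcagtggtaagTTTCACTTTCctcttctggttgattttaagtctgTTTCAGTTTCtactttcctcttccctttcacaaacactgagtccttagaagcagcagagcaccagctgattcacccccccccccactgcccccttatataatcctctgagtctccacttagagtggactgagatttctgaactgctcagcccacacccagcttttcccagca
Isg15 (chr4:156200769-156201068, minus strand): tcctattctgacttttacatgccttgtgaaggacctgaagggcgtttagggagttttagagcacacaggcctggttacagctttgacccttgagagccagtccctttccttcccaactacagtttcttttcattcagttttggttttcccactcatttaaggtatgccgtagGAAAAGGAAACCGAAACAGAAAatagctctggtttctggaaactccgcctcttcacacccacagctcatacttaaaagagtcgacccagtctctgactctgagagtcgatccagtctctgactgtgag
Cxcl10 (chr5:92348840-92349139, minus strand): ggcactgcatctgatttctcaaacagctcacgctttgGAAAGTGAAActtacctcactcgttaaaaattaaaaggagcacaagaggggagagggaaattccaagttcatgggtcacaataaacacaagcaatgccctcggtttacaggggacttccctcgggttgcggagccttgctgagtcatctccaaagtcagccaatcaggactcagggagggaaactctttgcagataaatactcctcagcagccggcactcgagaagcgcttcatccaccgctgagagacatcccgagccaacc
Gbp3, first window (chr3:142559794-142560093, plus strand): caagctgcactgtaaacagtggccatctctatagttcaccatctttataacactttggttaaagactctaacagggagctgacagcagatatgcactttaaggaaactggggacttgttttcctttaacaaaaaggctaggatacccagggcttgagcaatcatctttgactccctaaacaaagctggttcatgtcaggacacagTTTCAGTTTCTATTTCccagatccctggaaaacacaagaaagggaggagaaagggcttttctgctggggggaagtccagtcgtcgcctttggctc
Gbp3, second window (chr3:142560106-142560405, plus strand): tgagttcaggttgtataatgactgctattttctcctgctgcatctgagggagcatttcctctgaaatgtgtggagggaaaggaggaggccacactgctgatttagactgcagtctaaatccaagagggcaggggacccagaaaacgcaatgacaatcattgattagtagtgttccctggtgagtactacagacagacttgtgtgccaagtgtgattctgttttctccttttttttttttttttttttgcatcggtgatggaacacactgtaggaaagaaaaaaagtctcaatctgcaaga
B2m (chr2:122147437-122147736, plus strand): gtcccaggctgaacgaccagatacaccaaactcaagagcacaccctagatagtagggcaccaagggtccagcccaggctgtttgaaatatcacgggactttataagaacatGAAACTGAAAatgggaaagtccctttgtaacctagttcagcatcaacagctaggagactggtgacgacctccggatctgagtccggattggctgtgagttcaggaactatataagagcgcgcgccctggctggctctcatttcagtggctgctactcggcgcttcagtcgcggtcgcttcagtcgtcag
Ifit1 and Ifit3 each held 2 matches, Isg15 held 3 that overlap one another, and Cxcl10 held 1 from position -213 to -204 relative to the start. The first Gbp3 window held 2 overlapping matches and the second held none, and B2m held 1. Of the 45 members, 35 had a window in the table, 5 of them with 2 windows. The ISRE letters were found in 19 of the 35 (54.3%), against 3.99% of the 27025 genes with a window. By class, that was 12 of 23 type I antiviral members, 6 of 8 gamma members and 1 of 4 class I members. The GAS letters were found in 8 of the 35 (22.9%), against 9.55% of all genes, with 5 of 23 in the type I class, 3 of 8 in the gamma class and 0 of 4 in the class I class. CACGTG was found in 1 of the 35 (2.86%), Trim25, against 8.09% of all genes. A match is a description of letters and not of binding, and a window without one says only that those letters are not in it.

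Pressure overload was accompanied by higher levels of most of the 45 genes in both genotypes. In cKO hearts 36 of 45 were higher after TAC than after sham, where 26.5% of all tested genes passed in either direction and 14.2% passed as higher. In WT hearts 30 of 45 were higher, where 15.8% of all tested genes passed and 9.7% passed as higher. The list was chosen with earlier results of these data known. The shares stand beside the counts as description and do not test an excess. By edgeR 0 of 45 were lower in either genotype, where 12.4% of all tested genes passed as lower in cKO hearts and 6.14% in WT hearts. Unadjusted, 1 member, Iigp1, had a p under 0.05 as lower, in WT hearts, and DESeq2 called it lower there (adjusted p = 0.0384). The median log2 change of the 45 members was 0.61 in cKO hearts and 0.68 in WT hearts, against 0.00 and -0.01 over all tested genes. Both genotypes shared 29 of these calls. That is 29 of the 36 in cKO hearts and 29 of the 30 in WT hearts.

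**Figure D1:**
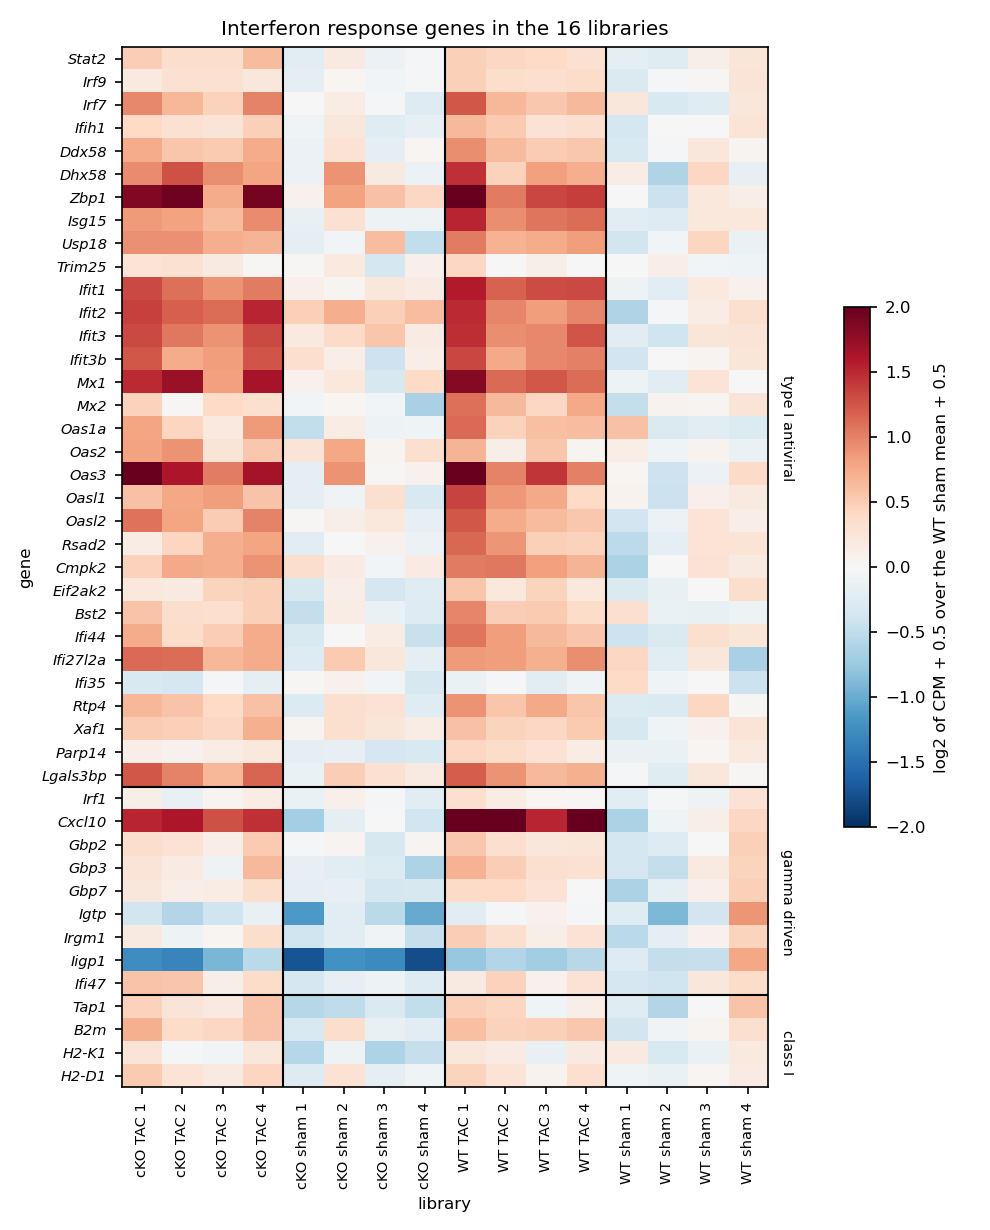
Log2 ratio of CPM + 0.5 to the WT sham mean for the 45 members (rows, by class) in the 16 libraries (columns, by group); the colour scale ends at 2 and -2. TAC columns are red for most type I antiviral rows in both genotypes, and WT sham replicate 4 is red for Igtp and Iigp1.

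Of the 32 type I antiviral genes, which are most of the list by choice, 28 were higher in cKO TAC than in cKO sham hearts (median log2 0.76) and 28 were higher in WT TAC than in WT sham hearts (median 0.84), and 27 passed in both. Every TAC library was above every sham library for 26 of the 32 in cKO hearts and for 26 of the 32 in WT hearts, against 15.5% and 11.0% of all tested genes. Those that passed in neither genotype were Trim25, Oas2 and Ifi35. Oas3 and Cxcl10 met the filter on low counts through their TAC libraries, with 1 sham library each past its level of 0.682 CPM, so a difference was needed for them to be tested at all. Oas3 is included in the type I counts above and in the effector counts below.

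Among the signalling genes, all 3 rose in both genotypes. Irf7, the interferon regulatory factor that amplifies type I interferon production, stood at 37.3, 30.4, 26.3 and 37.9 CPM in cKO TAC hearts, against 18.8, 21.0, 18.6 and 15.8 CPM in cKO sham hearts. WT TAC hearts had 45.6, 30.3, 27.8 and 29.9 CPM, against 22.2, 15.3, 15.9 and 22.2 CPM in WT sham hearts. All TAC libraries were above all sham libraries of the same genotype, and WT TAC replicate 1 was well above the other three of its group. The log2 changes were 0.83 ± 0.17 (adjusted p = 0.00195) in cKO hearts and 0.82 ± 0.17 (adjusted p = 0.00387) in WT hearts. Stat2 and Irf9, which encode subunits of the complex that binds the ISRE, rose by less, with log2 changes of 0.51 and 0.33 in cKO hearts and 0.41 and 0.39 in WT hearts.

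The 4 sensors of foreign or misplaced nucleic acid rose in both genotypes. Zbp1, which senses left-handed nucleic acid and can start cell death, stood at 5.16, 5.55, 2.12 and 5.43 CPM in cKO TAC hearts, against 1.17, 2.26, 1.86 and 1.59 CPM in cKO sham hearts. The level was 5.77, 2.75, 3.49 and 3.61 CPM in WT TAC hearts, against 1.07, 0.671, 1.33 and 1.24 CPM in WT sham hearts. The WT groups did not overlap, and in cKO hearts only TAC replicate 3 reached into the sham range. Log2 changes of Zbp1 were 1.41 ± 0.31 (adjusted p = 0.00324) in cKO hearts and 1.85 ± 0.34 (adjusted p = 0.00134) in WT hearts. Ddx58, which encodes the RNA sensor RIG-I, rose with log2 changes of 0.64 in cKO hearts and 0.68 in WT hearts. Ifih1, which encodes MDA5, had 0.44 in cKO and 0.47 in WT hearts, and Dhx58, which encodes LGP2, had 0.81 in cKO and 1.05 in WT hearts. Dhx58 passed in cKO hearts in 10 of 24 alternative settings.

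Isg15 encodes a ubiquitin-like protein that is attached to other proteins during antiviral responses. It stood at 7.56, 7.25, 6.37 and 8.03 CPM in cKO TAC hearts, against 3.52, 4.98, 3.64 and 3.66 CPM in cKO sham hearts. The WT TAC libraries held 12.2, 7.94, 8.86 and 9.14 CPM, against 3.28, 3.21, 4.65 and 4.63 CPM in the WT sham libraries. Neither pair of groups overlapped, and the log2 changes were 0.88 ± 0.18 (adjusted p = 0.00167) in cKO hearts and 1.27 ± 0.18 (adjusted p = 0.000164) in WT hearts. Usp18, the enzyme that removes ISG15 and dampens the type I receptor, rose with log2 changes of 0.85 in cKO and 0.91 in WT hearts. Trim25, a ubiquitin ligase that acts with RIG-I, had log2 changes of 0.19 and 0.14 that did not pass, with overlapping groups.

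**Figure D2:**
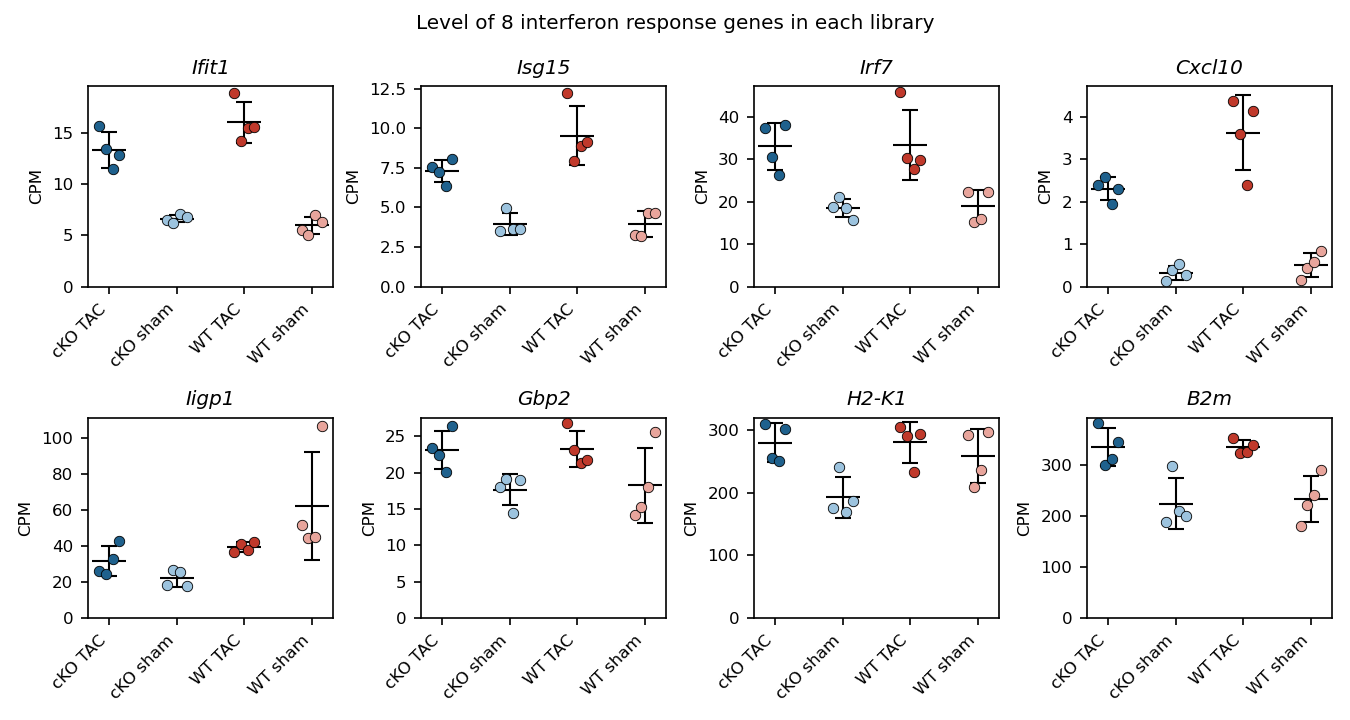
CPM of 8 genes in each library (points), with the mean and SD of each group of 4 (bars); every axis starts at 0. The TAC groups lie apart from the sham groups for Ifit1, Isg15, Irf7 and Cxcl10, and 1 WT sham library lies at 107 CPM for Iigp1.

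Of the 15 genes grouped here as antiviral effectors, 13 rose in cKO hearts and 13 in WT hearts. Of all tested genes, 14.2% passed as higher in cKO hearts and 9.7% in WT hearts. Ifit1, whose product binds RNA that lacks the cap modification of the host, stood at 15.6, 13.4, 11.5 and 12.8 CPM in cKO TAC hearts, against 6.45, 6.20, 7.06 and 6.77 CPM in cKO sham hearts. In WT TAC hearts it stood at 18.8, 14.2, 15.5 and 15.5 CPM, against 5.50, 5.07, 6.94 and 6.33 CPM in WT sham hearts. Each lowest TAC library was well above the highest sham library of its genotype. The log2 changes were 1.01 ± 0.13 (2.01-fold, adjusted p = 5.94e-05) in cKO hearts and 1.43 ± 0.13 (2.69-fold, adjusted p = 8.72e-06) in WT hearts, the smallest adjusted p of the 45 members in each genotype. This is the gene whose promoter above holds 2 ISRE matches, at positions -104 to -95 and -85 to -76 relative to the start.

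Its neighbours in the family behaved alike in direction. Ifit3 stood at 23.4, 19.4, 17.3 and 23.4 CPM in cKO TAC hearts, against 10.5, 12.0, 13.5 and 10.2 CPM in cKO sham hearts. WT TAC hearts had 26.0, 17.6, 18.1 and 22.4 CPM, against 7.64, 6.79, 10.8 and 11.0 CPM in WT sham hearts. No TAC library reached down to a sham library, and the log2 changes were 0.85 ± 0.17 (adjusted p = 0.00125) in cKO hearts and 1.22 ± 0.17 (adjusted p = 0.000153) in WT hearts. Ifit2 stood at 37.4, 33.2, 31.3 and 41.7 CPM in cKO TAC hearts, against 20.1, 23.8, 19.9 and 22.04 CPM in cKO sham hearts. The level was 41.0, 28.3, 25.7 and 28.5 CPM in WT TAC hearts, against 9.17, 13.9, 15.9 and 17.9 CPM in WT sham hearts. TAC and sham did not overlap, and it rose with log2 changes of 0.74 ± 0.17 (adjusted p = 0.00404) in cKO hearts and 1.12 ± 0.17 (adjusted p = 0.000449) in WT hearts. Ifit3b, a near copy of Ifit3, stood at 7.12, 4.92, 5.31 and 7.24 CPM in cKO TAC hearts, against 3.58, 3.04, 1.93 and 3.04 CPM in cKO sham hearts. The WT TAC libraries held 7.70, 4.96, 5.82 and 6.00 CPM, against 1.99, 2.76, 2.88 and 3.32 CPM in the WT sham libraries. Here too every TAC library was higher, with log2 changes of 1.08 ± 0.21 (adjusted p = 0.00150) and 1.16 ± 0.22 (adjusted p = 0.00181). Reads that fit both Ifit3 and Ifit3b may have been split or dropped in counting, so the level of either one is uncertain, as are those of Oas1a, the guanylate-binding proteins and the classical class I genes, which also have close copies.

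Mx1, a gene of the Mx family of GTPases, stood at 3.09, 3.72, 1.75 and 3.50 CPM in cKO TAC hearts, against 0.847, 0.969, 0.520 and 1.17 CPM in cKO sham hearts. In WT TAC hearts it stood at 4.05, 2.29, 2.52 and 2.27 CPM, against 0.687, 0.596, 1.03 and 0.772 CPM in WT sham hearts. These levels rest on 28 to 61 reads in a TAC library and 7 to 17 in a sham library, and the groups did not overlap. Mx1 rose with log2 changes of 1.76 ± 0.31 (adjusted p = 0.000542) in cKO hearts and 1.84 ± 0.32 (adjusted p = 0.000925) in WT hearts. Mx2 rose in WT hearts (0.88 ± 0.24, adjusted p = 0.0207) and had a log2 change of 0.56 ± 0.25 (adjusted p = 0.103) in cKO hearts.

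The Oas genes encode synthetases whose product activates the RNA-cutting enzyme RNase L, and the Oasl genes are related to them. Oas3 stood at 4.28, 2.14, 1.25 and 2.23 CPM in cKO TAC hearts, against 0.261, 1.10, 0.372 and 0.415 CPM in cKO sham hearts. WT TAC hearts had 3.12, 1.22, 1.81 and 1.22 CPM, against 0.382, 0.149, 0.295 and 0.618 CPM in WT sham hearts. TAC libraries lay above sham libraries throughout, and the log2 changes of 2.18 ± 0.48 (adjusted p = 0.00293) and 2.33 ± 0.53 (adjusted p = 0.00655) had the largest SE among the type I members. Oas3 met the filter through its TAC libraries, so this separation and these p-values are no independent support for a rise. Oasl2 stood at 30.9, 25.3, 20.5 and 29.0 CPM in cKO TAC hearts, against 14.6, 15.6, 16.7 and 12.8 CPM in cKO sham hearts. The level was 34.6, 24.4, 22.6 and 21.0 CPM in WT TAC hearts, against 10.9, 13.3, 17.6 and 15.8 CPM in WT sham hearts. Its groups were apart in both genotypes, and it rose with log2 changes of 0.83 ± 0.17 (adjusted p = 0.00194) in cKO hearts and 0.83 ± 0.17 (adjusted p = 0.00345) in WT hearts. Oas1a and Oasl1 also rose in both genotypes. Oas2 had log2 changes of 0.28 and 0.39 that did not pass.

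Of the remaining effectors, Rsad2, which encodes viperin, and its neighbour Cmpk2, which encodes a nucleotide kinase, rose in both genotypes. Cmpk2 stood at 14.1, 17.5, 17.05 and 19.3 CPM in cKO TAC hearts, against 13.0, 11.3, 9.67 and 11.4 CPM in cKO sham hearts. The WT TAC libraries held 21.3, 21.4, 18.3 and 16.4 CPM, against 6.34, 10.1, 12.4 and 11.5 CPM in the WT sham libraries. The groups did not overlap, though cKO TAC replicate 1 lay close to cKO sham replicate 1, and the gene had log2 changes of 0.58 ± 0.16 (adjusted p = 0.0142) in cKO hearts and 0.94 ± 0.17 (adjusted p = 0.00111) in WT hearts. Bst2, which encodes tetherin, a membrane protein that holds budding virus on the cell, rose with log2 changes of 0.61 and 0.62. Eif2ak2, which encodes the RNA-activated kinase PKR, rose in cKO hearts (0.54 ± 0.15, adjusted p = 0.0133) and had a log2 change of 0.38 ± 0.15 (adjusted p = 0.0912) in WT hearts.

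Lgals3bp, which encodes a secreted glycoprotein that binds galectins, stood at 109, 91.5, 73.1 and 103 CPM in cKO TAC hearts, against 41.7, 64.2, 56.4 and 51.7 CPM in cKO sham hearts. In WT TAC hearts it stood at 107, 86.0, 71.8 and 75.2 CPM, against 44.3, 38.5, 53.7 and 46.3 CPM in WT sham hearts. The groups did not overlap in either genotype, with log2 changes of 0.82 ± 0.15 (adjusted p = 0.00107) in cKO hearts and 0.89 ± 0.15 (adjusted p = 0.00101) in WT hearts. Ifi44, Ifi27l2a, Rtp4, Xaf1 and Parp14 rose in both genotypes, with log2 changes from 0.35 (Xaf1) to 0.84 (Ifi27l2a) in cKO hearts and from 0.31 (Parp14) to 0.85 (Ifi27l2a and Ifi44) in WT hearts. Xaf1 passed in cKO hearts in 9 of 24 alternative settings. Ifi35 had log2 changes of -0.15 and -0.11 that did not pass and turned positive, at 0.04 and 0.02, when libraries were scaled by their totals only.

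**Figure D3:**
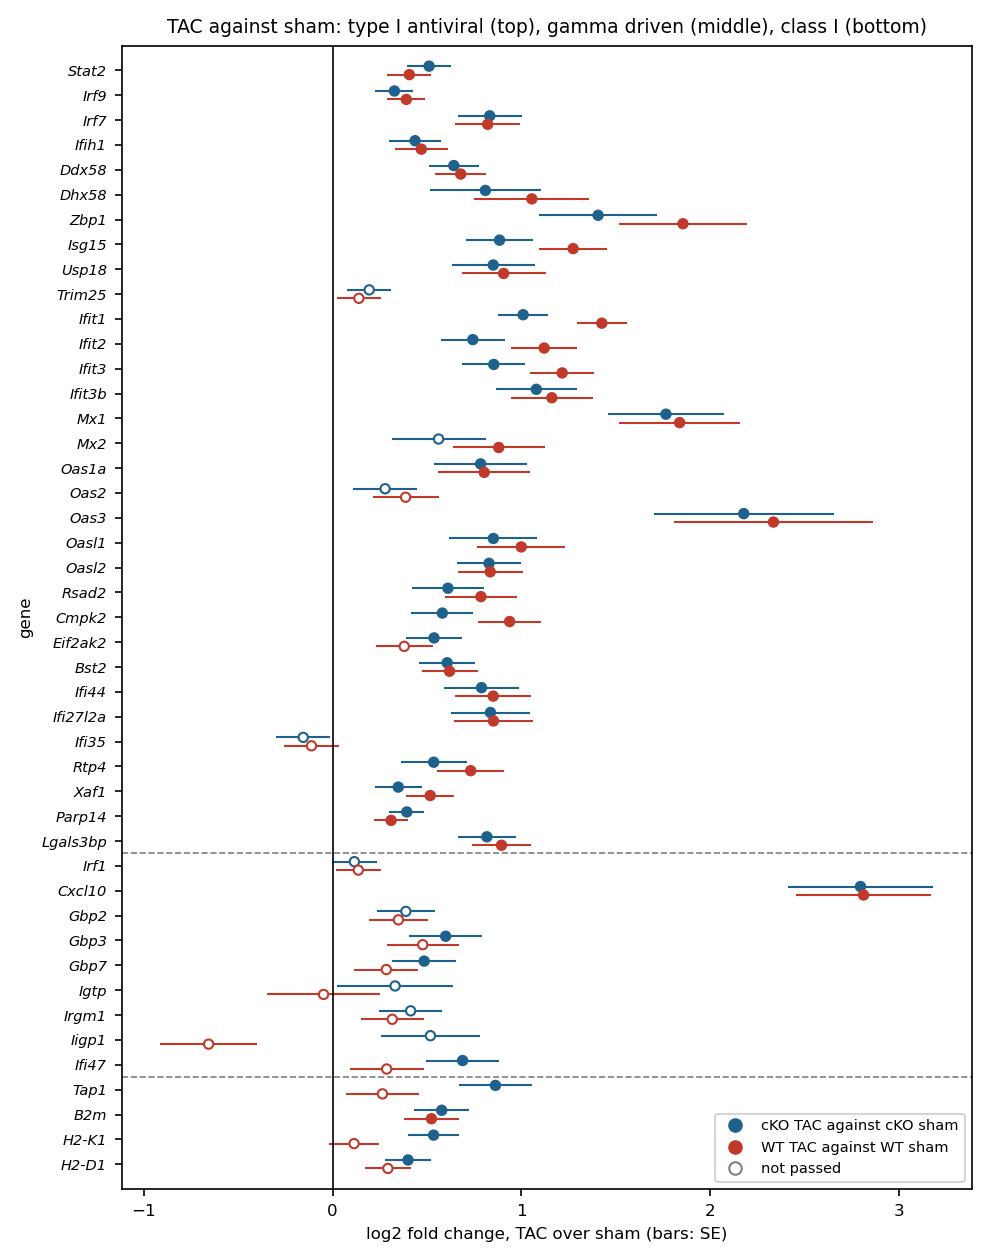
Log2 fold change of TAC over sham for each member (rows, by class) in cKO hearts (blue, above) and WT hearts (red, below), with SE as bars; open points did not pass. Most type I points lie between 0.3 and 1.5 in both genotypes, with medians of 0.76 in cKO and 0.84 in WT hearts. The gamma points other than Cxcl10 overlap them, with lower medians of 0.45 and 0.29 and with Iigp1 at -0.66 in WT hearts.

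The gamma class passed less often in these counts, with 4 of 9 higher in cKO TAC hearts (median log2 0.49) and 1 of 9 higher in WT TAC hearts (median 0.29), where 14.2% of all tested genes passed as higher in cKO hearts and 9.7% in WT hearts. The WT count is near the share over all genes. No test of the difference between classes was made. Cxcl10, which encodes a chemokine that attracts activated T cells, was the member called in both. It stood at 2.39, 2.59, 1.94 and 2.29 CPM in cKO TAC hearts, against 0.130, 0.388, 0.520 and 0.276 CPM in cKO sham hearts. WT TAC hearts had 4.38, 3.59, 2.39 and 4.13 CPM, against 0.153, 0.447, 0.590 and 0.850 CPM in WT sham hearts. Every TAC library was far above every sham library, on 31 to 71 reads against 2 to 11 reads a library, and the log2 changes of 2.79 ± 0.39 (adjusted p = 9.57e-05) and 2.81 ± 0.36 (adjusted p = 7.22e-05) were the largest of all 45 members. It met the filter through its TAC libraries, so this separation and these p-values are no independent support for a rise. Cxcl10 is also induced by type I interferon, and its window above holds an ISRE match. Without it the gamma class had 3 of 8 called in cKO hearts (median 0.45) and 0 of 8 in WT hearts (median 0.29; 3 of the 8 had an unadjusted p under 0.05, 2 of them higher and Iigp1 lower, and DESeq2 called Iigp1 lower).

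The guanylate-binding proteins are GTPases that attack the membranes around intracellular microbes. Gbp3 stood at 19.1, 17.8, 14.8 and 25.2 CPM in cKO TAC hearts, against 14.1, 13.4, 13.0 and 10.2 CPM in cKO sham hearts. The level was 26.1, 22.4, 20.1 and 19.8 CPM in WT TAC hearts, against 12.5, 11.3, 18.004 and 21.7 CPM in WT sham hearts. The cKO groups did not overlap, while WT sham replicate 4 lay among the WT TAC libraries. Gbp3 rose in cKO hearts (0.60 ± 0.19, adjusted p = 0.0290) and had a log2 change of 0.48 ± 0.19 (adjusted p = 0.0969) in WT hearts. Gbp7 stood at 16.2, 15.1, 15.2 and 17.6 CPM in cKO TAC hearts, against 12.0, 12.3, 10.6 and 11.0 CPM in cKO sham hearts. The WT TAC libraries held 18.05, 18.3, 17.01 and 13.8 CPM, against 8.71, 12.2, 14.8 and 19.4 CPM in the WT sham libraries. WT sham replicate 4 lay above all WT TAC libraries, and the cKO groups were apart. Gbp7 rose in cKO hearts (0.49 ± 0.17, adjusted p = 0.0425), a call lost in 11 of 24 alternative settings, with 0.28 ± 0.17 (adjusted p = 0.267) in WT hearts. Gbp2 passed in neither, at 0.39 ± 0.15 (adjusted p = 0.0711) in cKO hearts and 0.35 ± 0.16 (adjusted p = 0.133) in WT hearts.

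The immunity-related GTPases act on the same vacuoles and also bear on autophagy. Ifi47 stood at 6.80, 6.69, 4.81 and 5.80 CPM in cKO TAC hearts, against 3.39, 3.88, 4.09 and 3.59 CPM in cKO sham hearts. In WT TAC hearts it stood at 5.04, 6.26, 4.72 and 5.47 CPM, against 3.36, 3.21, 5.24 and 5.79 CPM in WT sham hearts. The cKO groups were apart and the WT groups overlapped. It rose in cKO hearts (0.69 ± 0.19, adjusted p = 0.0142) and had a log2 change of 0.29 ± 0.19 (adjusted p = 0.335) in WT hearts. Irgm1 and Igtp passed in neither genotype, at log2 0.41 and 0.33 in cKO hearts and 0.32 and -0.05 in WT hearts; the change of Igtp in WT hearts turned to 0.08 when libraries were scaled by their totals only. Iigp1 stood at 26.1, 24.7, 32.8 and 42.6 CPM in cKO TAC hearts, against 18.4, 26.6, 25.4 and 17.8 CPM in cKO sham hearts. WT TAC hearts had 36.5, 41.1, 38.0 and 42.0 CPM, against 51.6, 44.7, 45.2 and 107 CPM in WT sham hearts. The cKO groups overlapped, whereas in WT hearts every TAC library lay below every sham library, as was the case for 8.42% of all tested genes, and neither change passed (0.52 ± 0.26, adjusted p = 0.162, and -0.66 ± 0.26, adjusted p = 0.0952). Irf1, a transcription factor that interferon gamma induces early, stayed within 16.9 and 24.7 CPM in all 16 libraries, with log2 changes of 0.12 and 0.14 that did not pass.

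Libraries differed within groups, and the gamma and class I counts rest on some of them. WT sham replicate 4 was the highest of its group for 9 of 9 gamma members and 4 of 4 class I members, and for 13 of 32 type I members. Without it, 5 of 9 gamma members were higher in WT TAC hearts (Cxcl10, Gbp2, Gbp3, Gbp7 and Irgm1) at a median log2 of 0.49, and 7 of 9 were higher in cKO TAC hearts, whose own libraries were unchanged. Calls over all genes were then 1690 in WT and 4024 in cKO hearts, against 2409 and 4034 with it. In WT sham replicate 4 the sum of 15 macrophage and monocyte markers was 247 CPM, the lowest of WT sham, where the others had 278 to 388 CPM. The neutrophil sum, 1.08 CPM, was also the lowest. Sums of T cell, B cell, dendritic, endothelial and fibroblast markers lay within the range of the others. For 8 natural killer cell markers, none abundant enough to test, it had 1.54 CPM against 0.664 to 0.764 CPM in the others. That sum reached 1.83 CPM in a WT TAC library and 2.20 CPM in a cKO sham library. The part of these cells in the result was not tested. In cKO hearts the gamma count of 4 was 1 without cKO TAC replicate 1, and 2 without cKO TAC replicate 4, cKO sham replicate 3 or cKO sham replicate 4. Calls over all genes fell too, from 4034 to 2720, 3220, 2937 and 3145 in the same order. The gamma count was 7 with library totals only, a scaling that moves the median of all genes to 0.20 in cKO hearts and 0.11 in WT hearts.

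**Figure D4:**
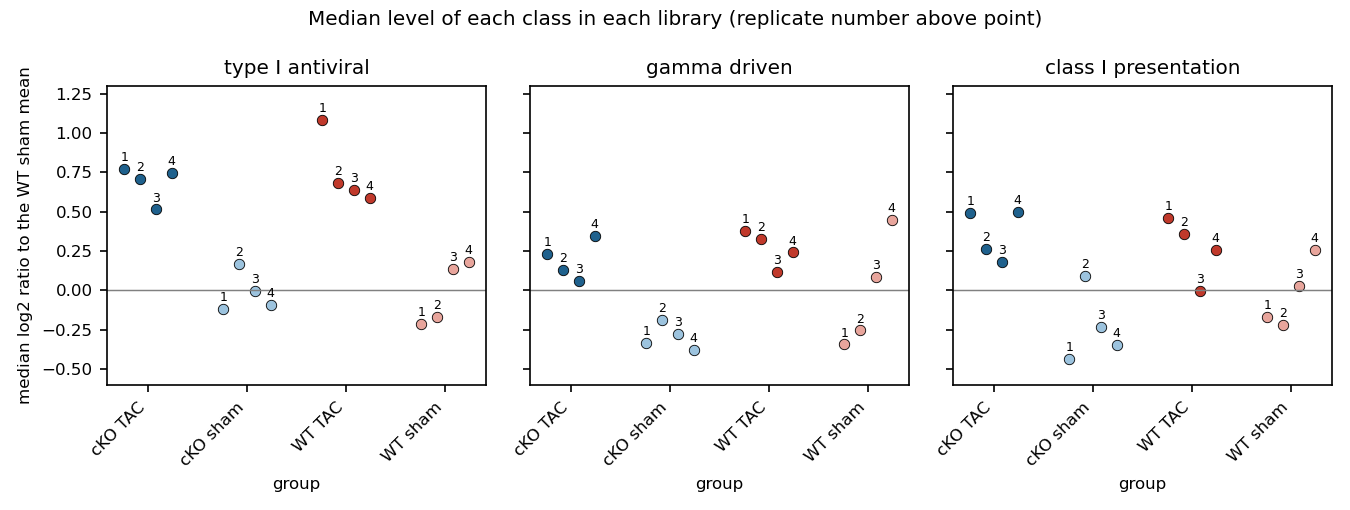
Median over the members of each class of the log2 ratio of CPM + 0.5 to the WT sham mean, per library (points, replicate number above). For the type I class every TAC library lies above every sham library, and for the gamma class WT sham replicate 4 lies at 0.45, above all TAC libraries.

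WT TAC replicate 1 was the highest of its group for 29 of 32 type I members, and its class median was 1.09 against 0.59 to 0.68 in the other WT TAC libraries. Without it, 21 of the 32 were higher in WT TAC hearts, at a median log2 of 0.69. Calls over all genes fell as well, from 2409 to 1234. Over all 24 alternative settings, 21 of the 28 type I calls in WT hearts and 20 of the 28 in cKO hearts passed each time. Of the gamma calls, Cxcl10 passed each time in both genotypes.

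Class I presentation moved by smaller steps than the type I class by median, which was 0.76 in cKO and 0.84 in WT hearts. Its medians were near those of the gamma class, 0.49 and 0.29. In cKO hearts 4 of 4 members rose (median log2 0.56), and in WT hearts 1 of 4, B2m, rose (class median 0.28). Of all tested genes, 14.2% passed as higher in cKO hearts and 9.7% in WT hearts. B2m, the light chain shared by class I molecules, stood at 382, 299, 312 and 345 CPM in cKO TAC hearts, against 187, 299, 211 and 199.7 CPM in cKO sham hearts. The level was 352, 322, 325 and 339 CPM in WT TAC hearts, against 179.9, 221, 241 and 289 CPM in WT sham hearts. The WT groups did not overlap, and cKO sham replicate 2 reached almost the lowest cKO TAC library. The log2 changes were 0.58 ± 0.14 (adjusted p = 0.00704) in cKO hearts and 0.52 ± 0.14 (adjusted p = 0.0202) in WT hearts; the WT call was lost without WT sham replicate 1, without WT TAC replicate 1 and without the 2 WT libraries with most atrial transcripts.

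Tap1, a subunit of the pump that loads class I molecules with peptides, stood at 28.0, 24.1, 22.98 and 30.1 CPM in cKO TAC hearts, against 13.4, 14.0, 16.4 and 14.2 CPM in cKO sham hearts. The WT TAC libraries held 28.2, 27.4, 19.0 and 22.2 CPM, against 16.9, 13.2, 20.3 and 30.1 CPM in the WT sham libraries. The cKO groups were well apart, and the WT groups overlapped through WT sham replicates 3 and 4. The log2 changes were 0.86 ± 0.19 (adjusted p = 0.00372) in cKO hearts and 0.26 ± 0.19 (adjusted p = 0.370) in WT hearts, the last 0.52 ± 0.16 (adjusted p = 0.0433) without WT sham replicate 4. H2-K1 and H2-D1, the heavy chains, rose in cKO hearts (0.53 and 0.40) and had log2 changes of 0.11 and 0.29 that did not pass in WT hearts. H2-D1 passed in cKO hearts in 19 of 24 alternative settings. Reads of Tap1 and the antisense gene Psmb9 could not be told apart, since the use of strand in counting is not stated, and the same holds for Cxcl10 and Art3 and for Irf7 and Phrf1.

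Per kilobase of exon, B2m was the most abundant member at 389 CPM in cKO TAC, 261 in cKO sham, 389 in WT TAC and 271 in WT sham hearts, followed by H2-D1 at 126, 95.3, 120.2 and 98.1 and by H2-K1 at 95.0, 65.6, 95.2 and 88.0. The most abundant type I members on this scale were Ifi27l2a, at 67.6, 37.9, 63.2 and 35.0, and Bst2, at 46.2, 30.3, 52.1 and 33.9. Oas3, at 0.350, 0.0759, 0.261 and 0.0511, was the least abundant of the 45.

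By edgeR, loss of Tfeb was accompanied by few differences in the 45 genes. Between cKO sham and WT sham hearts 1 of 45 members passed, where 1.17% of all tested genes passed and 0.552% passed as lower. This was Iigp1, whose values are given above: every cKO sham library lay below every WT sham library, at 22.045 ± 4.59 CPM in cKO sham and 62.1 ± 30.0 CPM in WT sham hearts (SD, n = 4 each). Its log2 change was -1.49 ± 0.26 (adjusted p = 0.0133). Without WT sham replicate 4 it was -1.10 ± 0.17 (adjusted p = 0.00636). The call was lost in a fit of the 2 groups alone (adjusted p = 0.0623) and without cKO sham replicate 4 (adjusted p = 0.0596).

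No type I member passed between cKO sham and WT sham hearts by edgeR; 3 of 32 had an unadjusted p under 0.05, and DESeq2 called 1 of them, Ifit2 (adjusted p = 0.0442). Ifit2 stood at 20.1, 23.8, 19.9 and 22.04 CPM in cKO sham hearts, against 9.17, 13.9, 15.9 and 17.9 CPM in WT sham hearts. Those groups did not overlap. Every cKO sham library was above every WT sham library for 1 of 45 members, this one, against 4.0% of all tested genes, and below for 2 members, Parp14 and Iigp1, against 3.59%. The log2 change of Ifit2 was 0.59 ± 0.18 (adjusted p = 0.107). In the class I set, H2-K1 stood at 175, 240.4, 169 and 187 CPM in cKO sham hearts, against 292, 208, 237 and 297 CPM in WT sham hearts. The groups overlapped, since cKO sham replicate 2 lay above WT sham replicates 2 and 3, and the log2 change of -0.42 ± 0.13 did not pass (adjusted p = 0.130). All 9 gamma members had a log2 change below 0 in this comparison, with a median of -0.29. Without WT sham replicate 4 the median was -0.09, and Gbp2 and Irf1 turned to 0.16 and 0.05.

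After TAC, 0 of 45 members differed between cKO and WT hearts by edgeR, where 1.78% of all tested genes passed, 1.18% as lower and 0.598% as higher. By DESeq2 the count was also 0, and 4 members had an unadjusted p under 0.05. These were Isg15 (-0.39 ± 0.17, adjusted p = 0.248), Ifit1 (-0.27 ± 0.13, adjusted p = 0.281), Mx2 (-0.51 ± 0.24, adjusted p = 0.273) and Cxcl10 (-0.65 ± 0.30, adjusted p = 0.262), all with a log2 change below 0. Every cKO TAC library was below every WT TAC library for 1 of 45 members, Irf9, against 5.12% of all tested genes, and above for 0 of 45, against 4.89%. Tap1, the class I member with the smallest p here, had a log2 change of 0.12 ± 0.19 (adjusted p = 0.802). The medians of the classes were -0.02 for type I, -0.19 for gamma and 0.03 for class I, against 0.00 over all tested genes.

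**Figure D5:**
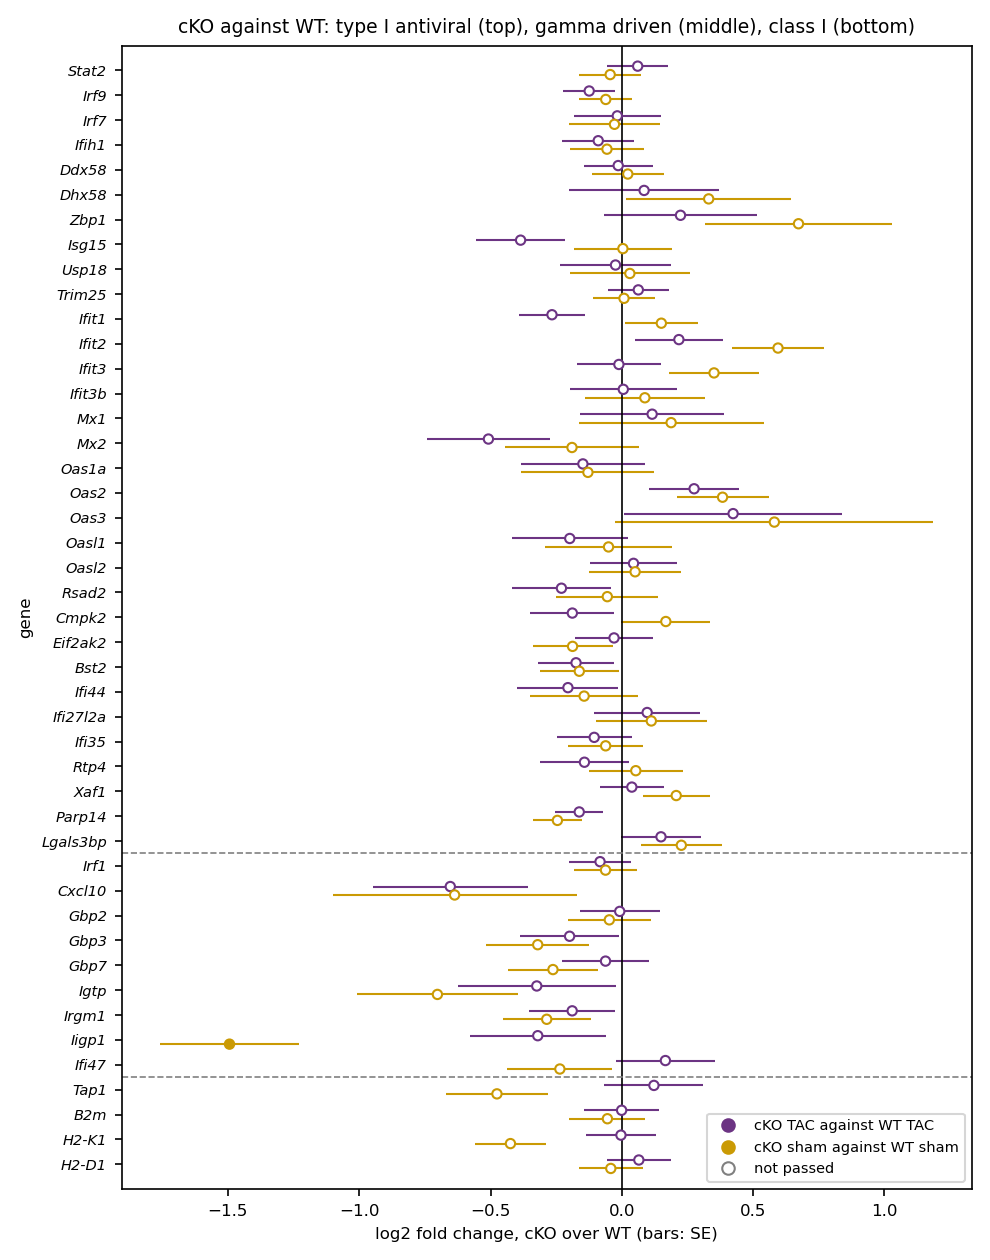
Log2 fold change of cKO over WT for each member (rows, by class) after TAC (purple, above) and after sham (yellow, below), with SE as bars; open points did not pass. Iigp1 after sham, at -1.49, is the filled point.

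The response to TAC itself was compared between genotypes by the interaction, which is the log2 change in cKO hearts minus that in WT hearts. By edgeR 0 of 45 members passed, as did 0.0% of all tested genes, and DESeq2 called 0 of the 45. Unadjusted, 4 members and 715 of all genes had a p under 0.05. Ifit1 had a difference of -0.42 ± 0.19 (adjusted p = 0.946). Iigp1 had a difference of 1.17 ± 0.37 (adjusted p = 0.946), which was 0.78 ± 0.23 (adjusted p = 0.984) without WT sham replicate 4, and Tap1 and H2-K1 had 0.60 ± 0.27 and 0.42 ± 0.19 (both adjusted p = 0.946). The calls made in 1 genotype only, Mx2 in WT hearts and Eif2ak2, Gbp3, Gbp7, Ifi47, Tap1, H2-K1 and H2-D1 in cKO hearts, are therefore not shown to differ between genotypes.

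The genes around the pathway were read from lists set out by role, which were also chosen with earlier results of these data known. Each count of genes that rose stands beside 14.2% of all tested genes higher in cKO hearts and 9.7% in WT hearts. For counts that fell, the shares are 12.4% and 6.14% lower. Of 10 interferon ligands, 8 had 0 reads in every library, a count that allows up to 0.184 to 0.232 CPM in a single library and 0.0127 CPM over the 16 together (3 reads, counting error only). Ifnb1 had 4 reads in 4 libraries and Ifng had 7 reads in 3 libraries, so no change of a ligand was detectable at this depth. Of 11 receptor and JAK-STAT genes, 3 rose in each genotype, among them Ifnar1 (0.44 ± 0.10, adjusted p = 0.00315) and Ifngr1 (0.36 ± 0.11, adjusted p = 0.0236) in cKO hearts and Stat3 (0.47 ± 0.12, adjusted p = 0.0160), Ifnar1 (0.36 ± 0.10, adjusted p = 0.0192) and Ifngr1 (0.41 ± 0.11, adjusted p = 0.0208) in WT hearts. Ifnar1 and Ifngr1 encode chains of the type I and gamma receptors.

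Of 19 further genes that lead from nucleic acid to interferon, 5 rose and 1 fell in cKO TAC hearts, and 9 rose in WT TAC hearts. The one that fell was Mavs (-0.43 ± 0.10, adjusted p = 0.00421), the adaptor on mitochondria through which RIG-I and MDA5 signal. It stood at 52.1, 50.5, 56.1 and 53.3 CPM in cKO TAC hearts, against 82.5, 65.9, 74.5 and 63.3 CPM in cKO sham hearts, with no overlap. In WT hearts its log2 change was -0.01 ± 0.10 (adjusted p = 0.974). The Mavs call in cKO hearts was lost when libraries were scaled by their totals only (-0.24, adjusted p = 0.0779). Tmem173, which encodes STING, rose in both genotypes (0.74 ± 0.20, adjusted p = 0.0123 in cKO hearts and 0.82 ± 0.21, adjusted p = 0.0133 in WT hearts), as did Irf5 (0.73 and 0.67) and Unc93b1, which carries endosomal receptors to their place (0.50 and 0.64). Tlr9, the endosomal DNA receptor, rose in WT hearts (2.05 ± 0.48, adjusted p = 0.00774) and had a log2 change of 0.83 ± 0.41 (adjusted p = 0.143) in cKO hearts. Ifi203 rose in both genotypes (0.47 and 0.51), and Ifi204, of the same family, rose in WT hearts (1.11 ± 0.23, adjusted p = 0.00323) and had a log2 change of 0.59 ± 0.22 (adjusted p = 0.05005) in cKO hearts. Between cKO and WT hearts 0 of the 19 passed by edgeR after sham or after TAC. DESeq2 called 3 higher after sham, where it called 546 of all genes. After TAC it called 1 higher and 1 lower (Mavs, -0.38, adjusted p = 0.0171), where it called 823 of all genes.

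Of 11 tested brakes on interferon signalling, 2 rose in each genotype, Socs1 (0.91 ± 0.31, adjusted p = 0.0357) and Ptpn6 (0.53 ± 0.19, adjusted p = 0.0475) in cKO hearts and Socs3 (1.61 ± 0.22, adjusted p = 0.00017) and Ptpn6 (0.79 ± 0.20, adjusted p = 0.0131) in WT hearts. The cKO calls of Ptpn6 and Socs1 were lost in 14 and 8 of 24 alternative settings, and Trex1, a further brake, is at 0 reads in every library. Socs3, an inhibitor of JAK kinases, stood at 8.27, 17.6, 11.4 and 12.2 CPM in cKO sham hearts, against 7.10, 7.31, 5.39 and 5.48 CPM in WT sham hearts. All cKO sham libraries were higher, with a log2 change of 0.97 ± 0.23 (adjusted p = 0.0429), a call that was lost in 15 of 24 alternative settings. In cKO hearts it did not pass between TAC and sham (0.13 ± 0.21, adjusted p = 0.709), and the difference of the TAC responses was -1.48 ± 0.31 (adjusted p = 0.801), which passed with DESeq2 (adjusted p = 0.0337).

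Further targets outside the 45 were counted in the same way. Of 32 more type I targets, 14 rose in cKO TAC hearts (median log2 0.47) and 12 rose in WT TAC hearts (median 0.44). Slfn9, of the schlafen family, stood at 6.61, 6.50, 7.68 and 9.84 CPM in cKO TAC hearts, against 2.28, 3.10, 1.26 and 1.73 CPM in cKO sham hearts. In WT TAC hearts it stood at 11.9, 11.5, 10.2 and 6.87 CPM, against 1.76, 2.09, 2.07 and 3.17 CPM in WT sham hearts, and TAC and sham libraries were far apart in both genotypes. Of 17 more gamma targets tested, 2 rose in cKO hearts (Irf8 and Socs1) and 1 rose in WT hearts (Irf8, 0.82 ± 0.16, adjusted p = 0.00222), with medians of 0.36 and 0.11. These counts lie below the shares of 14.2% and 9.7% over all tested genes. Between cKO sham and WT sham hearts 0 of the 17 passed by edgeR, with a median log2 of -0.53. DESeq2 called 1 of them, as lower, where it called 546 of all genes. Of 15 more class I and immunoproteasome genes, 4 rose and 1 fell in cKO hearts, where H2-M3 (0.67 ± 0.19, adjusted p = 0.0146) led the rises and Psme1, a proteasome activator subunit, fell (-0.52 ± 0.15, adjusted p = 0.0173). In WT hearts 0 of the 15 passed by edgeR or by DESeq2, and 0 had an unadjusted p under 0.05.

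Markers of some other cell types moved with TAC as well. Of all tested genes, 14.2% passed as higher in cKO hearts and 9.7% in WT hearts. Of 14 tested macrophage and monocyte markers out of 15, 10 rose in cKO TAC and 8 in WT TAC hearts, and their summed level was 595 to 821 CPM in cKO TAC, 330 to 639 in cKO sham, 444 to 603 in WT TAC and 247 to 388 in WT sham hearts. Between cKO and WT hearts 0 of these 14 markers passed by edgeR, with median log2 changes of 0.56 after sham and 0.45 after TAC. Of 8 fibroblast markers, 7 rose in cKO and 6 in WT hearts, with sums of 3862 to 8093, 1090 to 2075, 2558 to 4013 and 848 to 1392 CPM in the same 4 groups. Of 8 cardiomyocyte markers, 4 fell in cKO and 1 fell in WT hearts, where 12.4% and 6.14% of all tested genes passed as lower. The WT count is near that share. Markers of T cells stayed low, with a sum over 10 genes of at most 6.49 CPM in any library and 2 of 10 tested, and 0 of 8 natural killer cell markers were abundant enough to test. Atrial markers summed to 997 to 1983 CPM in cKO TAC, 319 to 741 in cKO sham, 201 to 1383 in WT TAC and 58.6 to 3708 in WT sham hearts, and without the 2 WT libraries with most of them 26 members were higher in WT TAC hearts. The part of these cells in the interferon response genes was not tested.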

How the data were processed

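The authors deposited raw counts, whole reads per Ensembl ID, for the 16 libraries. The submitters' processing notes name fastp 0.22.0, HISAT2 2.0.5, SAMtools 1.21, featureCounts 2.0.6 and the build GRCm39. How strand and reads with several matches were treated, and which annotation was used, is not given in the sources used here.

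The 45 members and all lists were chosen with earlier results of these data known. Symbols were matched through the reference name table, where Rigi is Ddx58. Counts were fitted in R 4.3.3 with edgeR 4.0.16 (filterByExpr, TMM, robust quasi-likelihood F-test, 1 mean per group, 12 residual degrees of freedom). CPM use the total times the TMM factor, SE comes from the F statistic, and p-values were adjusted over 15206 genes in each comparison. Full statistics are given for up to 8 type I, 5 gamma and 2 class I passing members with the smallest adjusted p, or the smallest p where none passed, and up to 4 passing genes of each pathway list. Values of such list genes in the other genotype were added after they were seen. Exon lengths and gene overlaps come from a GRCm38 annotation. The script was tested on simulated data. The alternatives were DESeq2 1.42.0, other scalings and filters, the 2 groups alone, a replicate block and each library left out. The result of 1 gene of the pathway lists is not reported here.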

Additional observations from a re-analysis of the deposited data

Results flagged for a closer look

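In each group of 4 libraries, the highest and the lowest library of every member was set against the other three, and 7 of 180 such groups had a library far from the others, where chance gives about 1 in 20. WT TAC replicate 1 stood high for Irf7 at 45.65 CPM and for Mx1 at 4.0475 CPM. WT sham replicate 1 stood high for Oas1a at 6.0345 CPM and for Bst2 at 38.651 CPM, and it lay in the range of the WT TAC libraries for Oas1a. WT sham replicate 4 stood high for Iigp1 at 106.9 CPM. cKO sham replicate 2 stood high for Isg15 at 4.976 CPM. cKO TAC replicate 3 stood low for Zbp1 at 2.1229 CPM.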

How the results depend on the processing

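Of 77 results for genes given full statistics, each gene counted once per comparison, 52 had the same call in all 24 alternative settings, and 0 of those that passed changed direction. Among the other members, near-zero values that had not passed changed sign with the scaling of libraries. Between TAC and sham these were Ifi35 and Igtp. More members did so between cKO TAC and WT TAC hearts, among them Irf7, B2m and H2-K1, and in the interaction, among them Bst2 and Cxcl10. Without WT sham replicate 4, Igtp changed sign after TAC. Between sham groups Gbp2, Irf1, Irf9, Stat2 and B2m were among those that did, so the direction of such small genotype differences is not settled. Leaving out 1 library at a time gave 26 to 38 members higher in cKO TAC hearts and 22 to 34 in WT TAC hearts, the lowest without cKO TAC replicate 4 and without WT TAC replicate 1. Over all genes it gave 2720 to 4633 calls in cKO hearts and 1234 to 2477 in WT hearts, 59 to 222 between cKO sham and WT sham hearts, 13 to 912 between cKO TAC and WT TAC hearts, and 0 for the interaction. Between cKO sham and WT sham hearts the members called numbered 0 to 1 with a library left out, 0 with the groups alone and 2 with DESeq2, which called 546 of all genes there against 178 by edgeR. Between cKO TAC and WT TAC hearts the 271 calls over all genes became 438 without a filter on low counts, 823 with DESeq2, 152 with the groups alone and 165 without the 2 WT libraries with most atrial transcripts. For the interaction over all genes DESeq2 called 3, and 2 passed without those 2 libraries. The cause of these differences was not tested. With the replicate block the members called were 33 in cKO and 30 in WT hearts, 1 between sham groups, 0 between TAC groups and 0 for the interaction. The block was kept as an alternative because the labels do not say that a replicate number is shared. Same-numbered libraries did not deviate together, with correlations from -0.160 to 0.229 over 24 pairs. Of the 16 libraries, 5 correlated best with their own number. With the 250 bases before the start alone, 45.7% of member promoters held the ISRE letters, against 3.46% of all genes. Genes at the levels of Cxcl10 and Oas3 in sham hearts rest on 2 to 17 reads a library, which limits the precision of their fold changes.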

Other observations

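Of 8 genes of MHC class II presentation, 1 rose in each genotype, Ctss, which encodes the protease cathepsin S that trims the invariant chain. That count is near the share of all tested genes higher after TAC, 14.2% in cKO hearts and 9.7% in WT hearts. It stood at 55.5, 36.3, 27.9 and 38.7 CPM in cKO TAC hearts, against 12.4, 29.2, 16.3 and 15.0 CPM in cKO sham hearts, and at 38.9, 21.9, 21.0 and 24.9 CPM in WT TAC hearts, against 10.1, 11.9, 13.4 and 8.19 CPM in WT sham hearts. The WT groups did not overlap, and in cKO hearts sham replicate 2 lay above TAC replicate 3. The log2 changes were 1.12 (adjusted p = 0.00821) in cKO hearts and 1.29 (adjusted p = 0.00782) in WT hearts by edgeR's quasi-likelihood test. DESeq2 called 1 of the 8 in cKO hearts and 3 of the 8 in WT hearts. Ctss is also abundant in macrophages, whose markers moved in the same direction, and their part was not tested.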
